A study of Mus musculus with 2 samples.

Results

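Deubiquitinating enzymes were examined in testes of 17 day old mice. They were taken as every probe set with 1 gene symbol in the platform annotation whose symbol names a ubiquitin-specific protease (Usp), a ubiquitin C-terminal hydrolase (Uchl and Bap1), an ovarian tumour protease (Otub and Otud), a Josephin protease (Josd and Atxn3), Cyld, or 1 of the metalloproteases Stambp, Stambpl1 and Brcc3. This gave 94 of 22626 non-control probe sets, which read 54 of 12393 genes: 39 Usp genes, 7 Otub or Otud genes, 4 of the C-terminal hydrolase family, 3 metalloproteases and the Josephin protease gene Josd2. The rule uses gene names only. Testes of UBR2-/- mice, which lack the ubiquitin ligase UBR2, were compared with wild type testes; all mice were 17 days old and of mixed 129SV and C57BL strain. For each genotype the labels name 2 testes, taken from different individuals of the same litter, and 1 oligonucleotide array. The sources used here do not state whether the RNA of these testes was pooled, which part of Ubr2 was deleted or how the allele was made. Cyld and Atxn3 are not analysed here. Since a genotype had a single array, no test across samples was possible, and the ratios compare these arrays only.

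Ubiquitin is attached to proteins by a chain of activating, conjugating and ligating enzymes, and deubiquitinating enzymes cut it off again. Most are cysteine proteases, while Stambp, Stambpl1 and Brcc3 belong to the zinc-dependent JAMM family. They rescue proteins from the proteasome, recycle ubiquitin, sort receptors at endosomes, and remove ubiquitin from histones and DNA repair proteins. In the mouse testis, loss of Usp1, Usp2, Usp14, Uchl1 or Cyld is known to disturb the making or the function of sperm, and ubiquitinated histone H2A marks the silenced sex chromosomes of meiotic cells.

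All values are linear probe set signals in arbitrary units on the authors' scale, and ratios are log2 of UBR2-/- over wild type. Signals under the 40th percentile of an array (24.7 on the UBR2-/- and 24.4 on the wild type array) were raised to that floor, and a gene was represented by its probe set with the highest mean signal. Of the 54 genes, 46 reached the mean of both floors, 24.55, in their mean signal and were compared, and 0 of these 46 were below the floor on either array. The targeted gene checks the labels: Ubr2, read by 1 probe set, had 14.3 on the UBR2-/- array, which is below the floor, and 57.2 on the wild type array, a difference of at least 2.32-fold. The 8091 compared genes had a median log2 ratio of 0.07, and their quartiles were -0.17 and 0.28. As a measure of technical error, probe sets that read 1 gene were set against each other in pairs. The SD of a single probe set in its log2 ratio was 0.24 over 965 dim, 0.19 over 964 intermediate and 0.13 over 965 bright genes, classed by the dimmer of the pair. This SD was estimated from the median absolute deviation, so pairs that disagree widely hardly count. It also leaves out error between arrays and animals. Scaling on the 42 bacterial and phage control probe sets instead of the deposited scaling would lower every ratio by 0.35, so members with a ratio between 0 and 0.35 lie below 0 on that scale.

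Most deubiquitinating enzyme genes had similar signals on both arrays, and the few that stood apart fell into a set of lower autosomal genes and a set of higher genes on the sex chromosomes. Usp2 and Stambp were lower by at least 2-fold in UBR2-/- testes, which is 2 of 46 compared members (4.35%) beside 3.52% of all compared genes. Usp9y was at least 2-fold higher, which is 1 of 46 (2.17%) beside 0.346% of all compared genes; with spike-in scaling its log2 ratio was 0.77 and 0 members were at least 2-fold higher. The share of lower members lay near that of all genes, and the higher share rests on 1 gene. The other 43 lay within 2-fold, and 32 of the 46 (69.6%) lay within 0.25 of the median of all genes, as did 55.7% of all compared genes. At 1.5-fold, 3 of 46 were lower, beside 7.71% of all compared genes, and 4 of 46 were higher, beside 4.21%. The median log2 ratio of the 46 was 0.09 with quartiles of -0.11 and 0.22; with spike-in scaling this median was -0.26 and that of all genes -0.28.

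**Figure D1:**
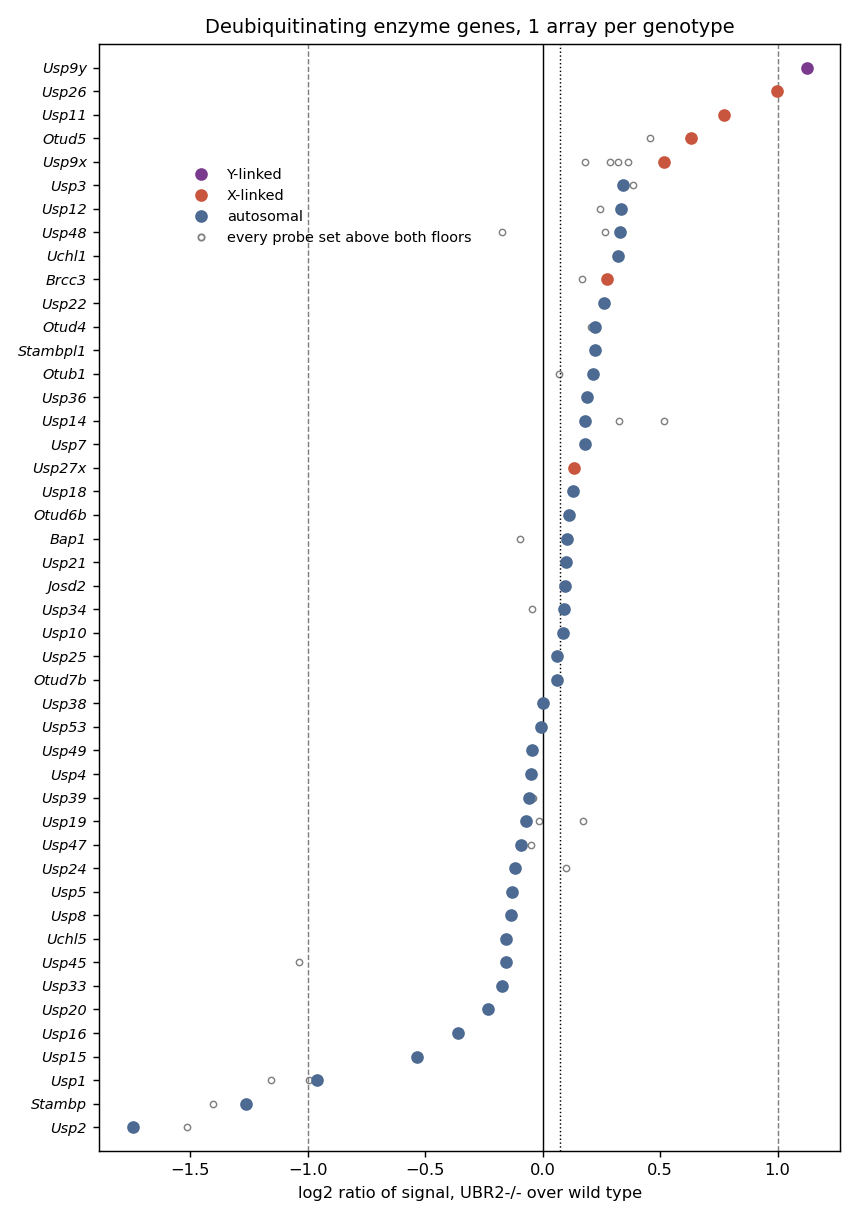
Log2 ratio of signal, UBR2-/- over wild type (x axis), for the 46 compared deubiquitinating enzyme genes (rows, highest at the top). Filled points are the brightest probe set, open points are every other probe set above the floor on both arrays, the dotted line is the median of all compared genes at 0.07 and dashed lines mark 2-fold. Usp9y at 1.12 and 4 X-linked genes from 0.52 to 0.996 lie at the top, and Usp2, Stambp and Usp1 at the bottom.

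Usp2 was the member farthest below 0. It encodes a protease with several isoforms whose loss makes male mice subfertile and whose RNA follows the circadian clock in many tissues. Its brighter probe set had 135.9 on the UBR2-/- array, against 454.7 on the wild type array, a log2 ratio of -1.74 or 3.35-fold lower. Its other probe set had 26.9, just above the floor, on the UBR2-/- array and 76.7 on the wild type array, a log2 ratio of -1.51. Both probe sets were low on the UBR2-/- array by similar ratios. Among the 8091 compared genes 1.26% had a lower ratio.

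Stambp, also called AMSH, cuts ubiquitin chains linked through lysine 63 from cargo at endosomes. Its probe sets had 207 and 95.7 on the UBR2-/- array, against 496.8 and 252.8 on the wild type array, with log2 ratios of -1.26 and -1.40, or 2.40-fold and 2.64-fold lower. Both of its probe sets have names that mark transcripts of the same gene as possible shared targets. Its close relative Stambpl1 was dim, with 29.4 on the UBR2-/- and 25.2 on the wild type array (0.22, or -0.13 with spike-in scaling). The wild type signal lay just above the floor, so a fall like that of Stambp could not have been seen.

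The promoters of Usp2 and Stambp are shown, since these are the members at least 2-fold lower. They come from RefSeq (GRCm38.p6) and run from 250 bases before the transcript start through the first 20 bases of the transcript, on the strand of the gene. Capitals mark the GC box GGGCGG, the CCAAT box, the core TGACG of the cAMP response element, the TATA box TATAAA, the E-box CACGTG and the MYB motif AACNGTT, searched on both strands. The window of Usp2 lies at chr9:44084670-44084939 on the + strand and that of Stambp at chr6:83572485-83572754 on the - strand.
Usp2: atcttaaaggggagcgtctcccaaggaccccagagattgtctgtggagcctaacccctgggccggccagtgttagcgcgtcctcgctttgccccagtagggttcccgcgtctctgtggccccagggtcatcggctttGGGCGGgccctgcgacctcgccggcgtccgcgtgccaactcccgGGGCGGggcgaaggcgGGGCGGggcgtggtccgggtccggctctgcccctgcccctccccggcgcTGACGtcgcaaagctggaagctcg
Stambp: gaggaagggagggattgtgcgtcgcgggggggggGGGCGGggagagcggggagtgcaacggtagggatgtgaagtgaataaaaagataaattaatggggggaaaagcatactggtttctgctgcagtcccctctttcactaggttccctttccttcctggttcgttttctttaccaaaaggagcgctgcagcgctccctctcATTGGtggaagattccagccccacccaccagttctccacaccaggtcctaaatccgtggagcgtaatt

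The window of Usp2 was 70.7% G or C and held 28 CpG pairs and 3 GC boxes, with TGACG across the transcript start. That of Stambp was 54.4% G or C with 11 CpG pairs, 1 GC box and 1 CCAAT. No motif other than the GC box was shared by both.

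Usp1 lay just inside the threshold. The enzyme removes ubiquitin from the DNA repair protein FANCD2 and the replication clamp PCNA, and male mice without it are infertile. Its 3 probe sets had 595, 152.2 and 59.3 on the UBR2-/- array, against 1158.5, 339.3 and 118 on the wild type array. Their log2 ratios were -0.96, -1.16 and -0.99, so that Usp1 was 1.95-fold lower by its brightest probe set and passed 2-fold when its probe sets were averaged (-1.04). USP1 works only weakly without its partner WDR48, and Wdr48 was also lower, with 249.1 on the UBR2-/- and 418.2 on the wild type array and a log2 ratio of -0.75, against -0.69 in the other of its 2 probe sets. Wdr48 also serves USP12, and the ratio of Usp12 pointed the other way at 0.33 (-0.02 with spike-in scaling).

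**Figure D2:**
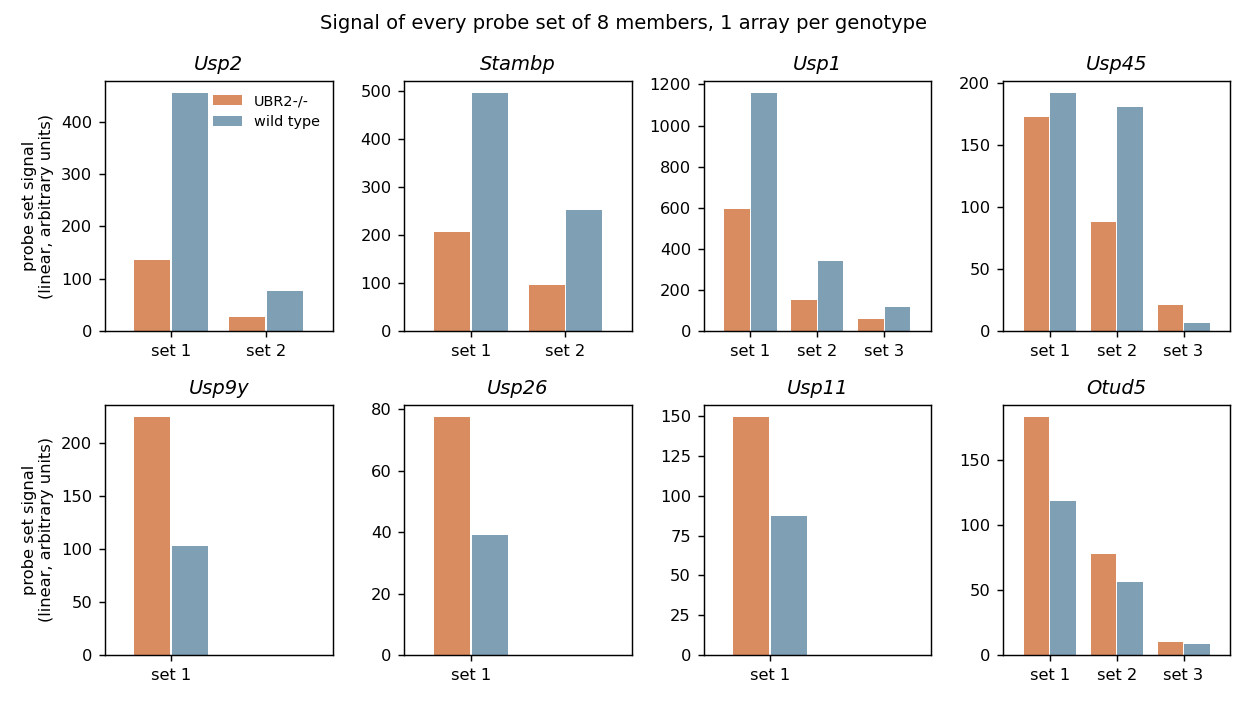
Signal of every probe set (y axis, linear, arbitrary units, a separate scale in each panel) for 8 members, with UBR2-/- on the left of each pair of bars and wild type on the right; each bar is 1 array. All probe sets of Usp2, Stambp and Usp1 are lower on the UBR2-/- array, those of Usp45 disagree, and those of Usp9y, Usp26, Usp11 and Otud5 are higher. The dimmest probe sets of Usp45 and Otud5 are below both floors and are not read as different.

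Usp45, whose protein acts on the DNA repair nuclease ERCC1-XPF, could not be placed by its probe sets. The brightest had 172.4 on the UBR2-/- and 192 on the wild type array (-0.16), while another had 88.1 on the UBR2-/- and 180.9 on the wild type array (-1.04), and the third was below both floors. This range of 0.88 was the widest among the 20 members with at least 2 probe sets above both floors. In 15 of these 20 the probe sets lay on the same side of 0, and in Bap1, Usp19, Usp24, Usp34 and Usp48 they did not. Usp16, the closest relative of Usp45 and a protease of ubiquitinated histone H2A, had 201.3 on the UBR2-/- and 258.3 on the wild type array (-0.36). Usp15, which acts in TGF-beta signalling and on the spliceosome, had 323.3 on the UBR2-/- and 468.6 on the wild type array (-0.54). Usp16 and Usp15 were each read by 1 probe set.

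The 7 compared members on the sex chromosomes all exceeded both 0 and the median of all genes, as did, for that median, 238 of the other 268 X-linked and all 5 other Y-linked genes. The count of 7 is therefore near that of the chromosomes themselves. With spike-in scaling all 7 still exceeded that median, but Usp27x (-0.22) and Brcc3 (-0.08) lay below 0. Usp9y, the Y-linked copy of a protease gene pair whose human counterpart lies in a region of the Y chromosome studied in male infertility, had 225.2 on the UBR2-/- and 103.3 on the wild type array, a log2 ratio of 1.12 or 2.18-fold higher. The X-linked Usp26, which is expressed mainly in testis, had 77.6 on the UBR2-/- and 38.9 on the wild type array; at 1.99-fold (log2 ratio 0.996) it lay just under the threshold. Usp9y and Usp26 were each read by 1 probe set, and that of Usp26 was dim. Whether the probes of Usp9y also bind RNA of its X-linked relative Usp9x was not tested.

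Usp11, which acts with the repair protein BRCA2, had 149.8 on the UBR2-/- and 87.6 on the wild type array, a log2 ratio of 0.77 in 1 probe set. Its autosomal relatives differed from it, since Usp4 had -0.05 and Usp15 -0.54. Otud5, a protease that restrains interferon signalling through TRAF3, had 183.7 and 77.5 on the UBR2-/- array, against 118.7 and 56.5 on the wild type array, with log2 ratios of 0.63 and 0.46; its remaining probe set was below both floors. Usp9x, the X-linked relative of Usp9y and a gene needed in early development, was read by 7 probe sets, of which 6 were above both floors. Its brightest had 550.6 on the UBR2-/- and 384.5 on the wild type array (0.52), and the 6 ranged from 0.18 to 0.52, all above 0.

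The same promoter window is shown for the sex-linked members beyond 1.5-fold that have 1 entry in the RefSeq table, with the same motifs in capitals. It lies at chrY:1459763-1460032 on the - strand for Usp9y, at chrX:51801214-51801483 on the - strand for Usp26 and at chrX:20703659-20703928 on the + strand for Usp11.
Usp9y: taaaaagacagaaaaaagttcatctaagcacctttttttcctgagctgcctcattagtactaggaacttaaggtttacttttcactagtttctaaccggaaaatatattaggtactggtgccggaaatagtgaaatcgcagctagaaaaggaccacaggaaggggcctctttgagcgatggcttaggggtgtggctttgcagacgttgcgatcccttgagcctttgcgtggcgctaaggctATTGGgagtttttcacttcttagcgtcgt
Usp26: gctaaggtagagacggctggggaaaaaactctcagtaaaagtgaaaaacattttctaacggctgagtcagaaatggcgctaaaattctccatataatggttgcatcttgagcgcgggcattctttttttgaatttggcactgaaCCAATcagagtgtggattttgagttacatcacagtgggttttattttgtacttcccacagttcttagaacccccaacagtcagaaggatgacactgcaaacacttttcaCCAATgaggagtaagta
Usp11: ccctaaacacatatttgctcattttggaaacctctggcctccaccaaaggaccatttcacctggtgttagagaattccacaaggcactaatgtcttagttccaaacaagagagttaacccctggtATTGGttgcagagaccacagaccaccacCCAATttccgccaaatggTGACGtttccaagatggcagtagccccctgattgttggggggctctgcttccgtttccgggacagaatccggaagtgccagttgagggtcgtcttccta

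These 3 windows had no GC box, but those of other X-linked members did, with 2 in 1 of the 2 windows of Otud5, 3 in Brcc3 and 1 in Usp27x. The printed windows held 1 CCAAT in Usp9y, 2 in Usp26 and 2 in Usp11, with 1 TGACG in Usp11. Across 47 windows of 41 members with an entry the median was 63.7% G or C and 19 CpG pairs, against 52.6% and 6 over all 32851 windows of the table. GGGCGG stood in 57.4% of member windows and 34.1% of all, TGACG in 42.6% and 19.4%, CCAAT in 40.4% and 35.4%, CACGTG in 8.51% and 6.57%, TATAAA in 2.13% and 12.9%, and AACNGTT in 0% and 4.04%. GGGCGG and TGACG each hold a CpG pair, and whether their shares differ beyond the G, C and CpG content was not tested. The windows of the table were not limited to compared genes, and a member with several entries counts more than once. Windows of 1 gene can overlap, and these matches are descriptions of letters, not of bound sites. Usp1 and Usp9x are among the members without an entry.

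The remaining X-linked members differed less. Brcc3, the lysine 63-specific protease of the BRCA1-A repair complex, had 108.8 on the UBR2-/- and 89.9 on the wild type array (0.28) in its brightest probe set. The other one above the floors had 39.5 for UBR2-/- and 35.2 for wild type (0.17). Usp27x, which works on histone H2B like its autosomal relative Usp22, was dim at 29.6 on the UBR2-/- and 27 on the wild type array (0.13), while Usp22 had 108.6 on the UBR2-/- and 90.7 on the wild type array (0.26).

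X-linked genes in general had higher log2 ratios than autosomal genes, so the X-linked members were read against their chromosome. Spike-in scaling lowers every ratio by 0.35, so whether X-linked signals were higher or autosomal signals lower depends on the scaling. The 6 X-linked members had a median log2 ratio of 0.57, against 0.35 for the other 268 compared X-linked genes, whose quartiles were 0.21 and 0.52. At least 2-fold higher were 0 of the 6, beside 3.28% of the 274 X-linked genes, and at least 1.5-fold higher were 3 of the 6, beside 19.3%. Counted from the highest of the 274 ratios, Usp26 was at place 10, Usp11 at 19, Otud5 at 45, Usp9x at 70, Brcc3 at 178 and Usp27x at 230. So by brightest probe sets 4 members lay in the upper part of their chromosome and 2 in its lower part. With probe sets averaged, Otud5 had 0.37, which is within 1.5-fold, Usp9x had 0.31 and Brcc3 0.15. Each of these averages includes a probe set below both floors. The other X-linked genes were not summarised with averaging, so the X-linked medians and places hold for brightest probe sets only. Usp9y had the second highest of the 6 compared Y-linked ratios, and the other 5 had a median of 0.64. The 39 autosomal members had a median of 0.06, equal to the 0.06 of the other 7762 autosomal genes, and their highest ratio was 0.34. The medians of sex-linked and autosomal members differed by 0.57, and by 0.34 when all probe sets of a gene were averaged.

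**Figure D3:**
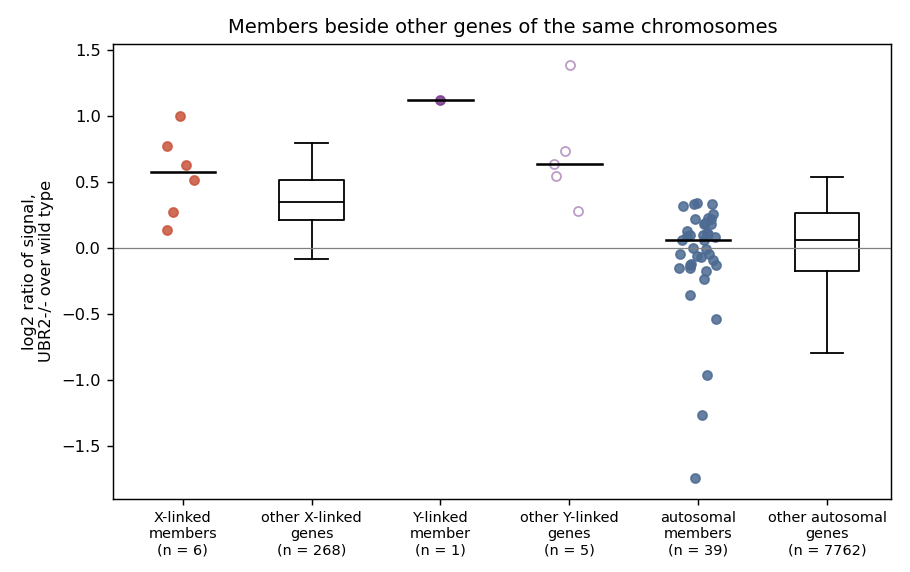
Log2 ratio of signal, UBR2-/- over wild type (y axis), of members on the X, Y and autosomes, each left of the other compared genes of the same chromosomes. Points are genes and thick lines medians; boxes show quartiles and whiskers the 5th and 95th percentiles of the larger groups. The X-linked members, with a median of 0.57, spread over the range of other X-linked genes, and 3 autosomal members lie at or below -0.96.

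Markers of late spermatocytes, Sertoli cells and myoid cells moved beside these differences, while those of other testis cell types had medians closer to 0 or were mixed. All 10 compared markers of late spermatocytes were lower on the UBR2-/- array, with a median log2 ratio of -2.50 and summed signals of 2109.4 on the UBR2-/- and 9495.5 on the wild type array. Pgk2 (-2.12) and Ccna1 (-1.07) were below the floor on the UBR2-/- array, so their falls are minimum values and the median may be lower. Of 7 Sertoli cell markers 6, all but Amh at -1.23, lay above the median of all genes, and the 7 had a median of 0.41. Their summed signals of 8810.1 on the UBR2-/- and 6527.1 on the wild type array were mostly Clu, with 7075.9 and 5186.1. All 4 peritubular myoid markers also lay above the median of all genes (median 0.58, summed signals of 3360.1 on the UBR2-/- and 2311.9 on the wild type array). The 7 compared early meiotic markers had a median of 0.01 (summed signals of 8472.5 on the UBR2-/- and 8836.4 on the wild type array), with Spo11 at -1.27. The 5 spermatogonial markers had 0.02 (1782.3 on the UBR2-/- and 2002.2 on the wild type array), with Id4 at -1.07. Only 2 of 6 spermatid markers were compared, and they opposed each other, with Prm1 at 1.41 and Tekt1 at -2.57. Medians were 0.21 over 4 Leydig cell, 0.14 over 4 endothelial and -0.06 over 3 macrophage markers. Both arrays carried testis markers, with Ldhc, Sycp3 and Sox9 above the floor, while Hba-a1 and Alas2 of red blood cells were below it. In whole testes, fewer cells of a type and less RNA per cell cannot be told apart, and the part that cell makeup has in the ratios of Usp2, Stambp, Usp1 and the X-linked members was not tested.

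Among proteases that act on chromatin, 9 members were compared and 0 were beyond 2-fold or 1.5-fold. Of all compared genes 3.52% were at least 2-fold lower and 0.346% higher, and 7.71% and 4.21% at 1.5-fold. In the short lists here and below, a count of 0 is therefore not read as a trait of the list. The median log2 ratio of the 9 was 0.13, and 7 of them exceeded the median of all genes, as did 4045 of all 8091 compared genes. The histone H2A protease Usp3 had 346 and 222.6 on the UBR2-/- array, against 273.3 and 170.3 on the wild type array (0.34 and 0.39). Usp7, which stabilises MDM2 and p53, had 1072.1 on the UBR2-/- and 945.1 on the wild type array (0.18), Usp21 had 0.10, and Bap1, the H2A protease of the Polycomb system, had 0.10 by its brightest probe set and -0.09 by the other. Usp49, a protease of histone H2B, had -0.04 and was dim. With spike-in scaling the brightest probe sets of all 9 lay below 0, from -0.71 for Usp16 to -0.01 for Usp3.

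Of the 8 members tied to DNA damage and replication 0 were beyond 2-fold, with Usp1 and Usp11 beyond 1.5-fold on opposite sides of 0, and the median was 0.15. Usp47, which acts on a repair polymerase, had 956.3 on the UBR2-/- and 1019.2 on the wild type array (-0.09). Usp10, a protease of p53 that binds the stress granule protein G3BP1, had 0.08, Otub1, which blocks the conjugating enzyme UBC13, had 0.22, and Usp48 had 0.33 in its brightest and -0.17 in its dimmest probe set.

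The 4 compared proteases of the proteasome and of free ubiquitin lay close to all genes, with a median of 0.03. Usp14 and Uchl5 are both docked on the proteasome and pointed in opposite directions on the deposited scale. Usp14 had 514.3 on the UBR2-/- and 453.1 on the wild type array (0.18, and up to 0.52 in its other probe sets). Uchl5 had 361 on the UBR2-/- and 401.9 on the wild type array (-0.15). Its other probe set, below the floor on the UBR2-/- array, had -0.43 or lower. With spike-in scaling both genes lay below 0, at -0.17 for Usp14 and -0.51 for Uchl5. Uchl1, an abundant hydrolase of neurons and spermatogonia, had 833.1 on the UBR2-/- and 667.8 on the wild type array (0.32). Usp5, which takes apart unanchored ubiquitin chains, had 160.3 on the UBR2-/- and 175.5 on the wild type array (-0.13), and its relative Usp13 was below both floors.

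The 9 members listed under endosomes and membranes had a median of -0.13. Of these 9, 2 were at least 2-fold lower, Usp2 and Stambp, beside 3.52% of all compared genes. Usp9y was at least 2-fold higher, beside 0.346%. These are the members beyond 2-fold described above, so the wide spread of this group depends on their being put on this list. Usp8, which acts with STAM at endosomes and is also found at the acrosome of sperm, had 433.7 on the UBR2-/- and 475.5 on the wild type array (-0.13). Usp33 and Usp20, relatives that recycle cell surface receptors, had -0.17 and -0.23, and Usp19 of the endoplasmic reticulum had -0.07. The 4 compared members of innate immune and NF-kB signalling had a median of 0.10, with Otud5 at 0.63, Usp18, which removes the ubiquitin-like ISG15, at 0.13, and Usp25 and Otud7b at 0.06 each. The 4 of splicing and RNA had a median of -0.05, with Usp39, a spliceosome protein that lacks protease activity, at -0.06, Usp4 at -0.05 and the nucleolar Usp36 at 0.19.

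**Figure D4:**
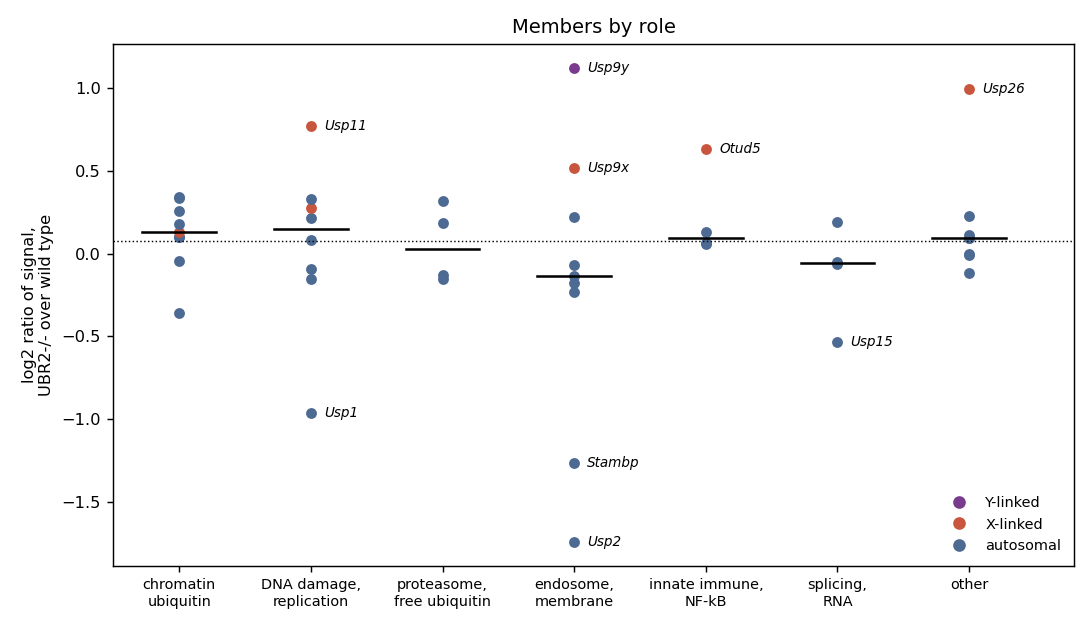
Log2 ratio of signal, UBR2-/- over wild type (y axis), of the 46 compared members by role; points are genes coloured by chromosome, thick lines are medians, the dotted line is the median of all compared genes at 0.07, and genes more than 0.5 from 0 are named. Medians run from -0.13 for endosome and membrane to 0.15 for DNA damage and replication.

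Members in no role list were close to 0 apart from Usp26. Usp34, which acts on axin in Wnt signalling, had 1141.4 on the UBR2-/- and 1070.2 on the wild type array (0.09), and Otud4 had 1148.9 on the UBR2-/- and 982.8 on the wild type array (0.23). Otud6b, Josd2, Usp38, Usp53 and Usp24 had ratios of 0.11, 0.10, 0.00, -0.01 and -0.12. The 8 members that were too dim to be compared were Usp13, Usp17la, Usp29, Usp42, Usp43, Otub2, Otud7a and Uchl4. Of these only Otud7a was above a floor, with 7.6 on the UBR2-/- and 29.5 on the wild type array, so that it was at least 1.19-fold lower there. With a 25th percentile floor Otud7a was compared and joined Usp2 and Stambp as at least 2-fold lower.

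Genes around the enzymes were compared from lists of the pathway. Of 15 further proteases with names outside the pattern, mostly deubiquitinating enzymes, 8 were compared, 0 were beyond 2-fold and their own median was -0.19. The 8 include Cops5, at -0.19, which removes the ubiquitin-like NEDD8. Ratios under the median of all genes were found in 7 of the 8, beside 4045 of all 8091 compared genes. The lowest were Zup1, a protease of lysine 63 chains, with 207.2 on the UBR2-/- and 329.6 on the wild type array (-0.67), and Zranb1 at -0.25, and the highest were the proteasome protease Psmd14 at 0.17 and Otulin at -0.13. Of 26 partner genes 18 were compared, with a median of 0.07 and 0 beyond 2-fold. Below Hgs, the partner of STAM on endosomes at -0.26, stood only Wdr48, and the highest were Hcfc1, an X-linked partner of BAP1, at 0.58 and Atxn7l3, the adaptor of USP22, at 0.42. Among 8 compared genes that attach ubiquitin to histones, 1 was beyond 2-fold, Ubr2 itself, followed by Ube2b at -0.24, and the highest were the X-linked Ube2a at 0.80 and Bmi1 at -0.04, with a median of -0.14.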

How the data were processed

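Whole testis RNA was hybridised to 1 Affymetrix 430A 2.0 mouse array for each genotype. The authors deposited linear intensities, 1 for each probe set, made with MAS5 per the submitters' processing notes; the sources used here do not state its settings or calls. The 2% trimmed mean was 150.04 on both deposited arrays and the median 48.75 (UBR2-/-) and 48.7 (wild type), so the authors' scaling was kept. Genes were named through the platform annotation and, by Entrez identifier, GRCm38.p6, which matched all 54 members; 5 probe sets fitting the pattern together with other symbols were left out. Log2 ratios were taken after the floor at the 40th percentile with Python 3.11.15 and pandas 2.3.3. The procedure was tested on data simulated from the wild type array, with changes planted in brighter genes only. No change near 2-fold and no error shared by an array or animal was simulated, so calls of dim members or near the threshold were not tested. The number of arrays limits the precision. Every member could be named. Other genes are the 2 lowest and 2 highest of a list, Cops5, and cell type markers. Members, lists and tests were chosen with earlier results of these data known. Alternatives were 4 scalings, floors at the 25th and 60th percentiles, a pseudocount of 10 without a floor, averaging the probe sets of a gene, leaving out those named _s_at, _x_at or _a_at, and thresholds of 1.5-fold and 3-fold.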

Additional observations from a re-analysis of the deposited data

How the results depend on the processing

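With 1 array per genotype no replicate could be left out. No paired analysis was possible because each genotype had 1 array. The ratios of single members moved by less than the probe set SD in 339 of 393 alternatives and by more in 54, of which 46 were the common shift by spike-in scaling. Many of the 339 could hardly move, so their number is no measure of agreement. A changed floor leaves a member above it as it was, and averaging leaves a member with 1 probe set as it was. Scaling to the array median hardly changed any ratio, since both medians were nearly equal. No member beyond 2-fold changed sign. Spike-in scaling left 0 members at least 2-fold higher, took the member median to -0.26 and gave 528 genes lower and 7 higher over all genes. Genes at least 2-fold higher numbered 17 with loess and 17 with a pseudocount, 131 with a 25th percentile floor (where Otud7a made 3 lower members), and 8 with a 60th percentile floor, where 152 were lower. At 1.5-fold 4 members and 341 genes were higher and 624 genes lower; at 3-fold 1 member was lower, 0 members were higher, and 121 genes were lower and 3 higher. The difference of medians between sex-linked and autosomal members was 0.34 with the mean over probe sets and 0.46 without probe sets named _s_at, _x_at or _a_at. Leaving these out also took Stambp out of the comparison and made Usp45 at least 2-fold lower. With a 60th percentile floor Usp26 was too dim to be compared. Usp1 was at least 2-fold lower with loess, spike-in scaling and the mean over probe sets.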

Other observations

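Proteases of the ubiquitin-like modifiers SUMO and NEDD8 were listed as a neighbouring group. The NEDD8 protease on this list had no probe set with 1 gene symbol, so the values below cover SUMO proteases only. Of 9 genes on the list 6 were compared, 0 were beyond 2-fold or 1.5-fold, and the median log2 ratio was -0.03. Senp2, a SUMO protease of the nuclear pore, had 854.2 on the UBR2-/- and 1191 on the wild type array (-0.48, with a range of -0.68 to -0.47 over its 3 probe sets), and Senp1 had -0.27. The highest were Desi2 at 0.26, with -0.32 in its other probe set, and the nucleolar Senp3 at 0.24. Of the modifiers themselves, Nedd8 had 807.8 on the UBR2-/- and 801.9 on the wild type array (0.01) and Sumo3 had 832.3 on the UBR2-/- and 803.2 on the wild type array (0.05).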
